A study of Trametes versicolor with 3 samples.

Results

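Transcripts of 3 gene models for enzymes of hemicellulose breakdown were followed in the white-rot fungus Trametes versicolor grown on 3 media. They were jgi|Trave1|145163, which KEGG names an endo-beta-xylanase, jgi|Trave1|162219, an acetyl xylan esterase, and jgi|Trave1|114254, which KEGG names an alpha-galactosidase. Gene models are written below as Trave1 with their number. They are 3 of 11480 gene models with a read in at least 1 library. The genes were picked by identifier with earlier results of these data known, in which their levels differed between media, so their levels and ratios are a description and carry no test. All cultures were strain CICC 14001, and mycelium was taken at 9 days, with a mycelial mat of 4 cm. The media were PDA, which usually stands for potato dextrose agar, a medium with glucose as carbon source, and a medium of poplar. The labels' growth protocol gives PDA at 25 °C for every sample, so the medium was taken from the source names, and nothing in the files checks it independently. With 1 library per medium there is no replicate error and no p-value, and a difference between media cannot be told apart from a difference between cultures or libraries.

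Hemicelluloses are the branched polysaccharides that lie between cellulose and lignin in the plant cell wall. In hardwoods such as poplar the main one is xylan, a chain of xylose units that carries acetyl and glucuronic acid groups. Xylanases cut within the chain, and acetyl xylan esterases remove acetyl groups that block them. Alpha-galactosidases remove galactose side groups, among others from galactomannan. Fungi commonly produce such enzymes together, and in many species easily used sugars repress their genes.

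The annotations in the files differ in how directly they name the enzymes. Trave1_162219 is an acetyl xylan esterase both by its closest database protein and by KEGG. Trave1_145163 is a xylanase by KEGG alone. Its closest protein is hypothetical, with the RefSeq locus tag TRAVEDRAFT_144893, and its gene ontology function is hydrolysis of O-glycosyl compounds. The closest protein of Trave1_114254 is described only as a glycoside hydrolase. The gene models are 1149, 1113 and 1323 bases long in that order. These were read as coding lengths, corresponding to 383, 371 and 441 codons, because 99.4% of the listed lengths in each library are multiples of 3.

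All 3 genes had their highest level in the glucose library, an intermediate level in the poplar library and their lowest level in the PDA library. Levels are in RPKM, reads per kilobase of gene model length divided by the library's total of reads. The 95% exact interval in parentheses covers counting error only. In all 3 genes the intervals of the 3 libraries did not overlap. The genes were picked with their levels known, and no share over all gene models is given beside this. Nothing is therefore read from it. The libraries held 2.85 M, 2.68 M and 2.80 M uniquely assigned reads for PDA, glucose and poplar. One read on a gene model of 1 kb was therefore worth between 0.351 and 0.373 RPKM.

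The xylanase Trave1_145163 measured 14.0 RPKM (10.3 to 18.7) on PDA, 1039 RPKM (1004 to 1076) on glucose and 173 RPKM (159 to 188) on poplar. These levels rest on 46, 3198 and 557 reads. By RPKM it ranked 138 of 10979 listed gene models on glucose, 987 of 11101 on poplar and 5739 of 10871 on PDA. It thus stood near the middle of the listed genes on PDA and among the most abundant few percent on glucose.

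The acetyl xylan esterase Trave1_162219 measured 23.6 RPKM (18.6 to 29.6) on PDA, 457 RPKM (433 to 482) on glucose and 70.6 RPKM (61.6 to 80.6) on poplar. Its read counts were 75, 1362 and 220. Its rank by RPKM was 386 on glucose, 2214 on poplar and 4479 on PDA, so it stood below the xylanase on glucose and poplar and above it on PDA.

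The alpha-galactosidase Trave1_114254 measured 56.2 RPKM (48.9 to 64.3) on PDA, 774 RPKM (745 to 804) on glucose and 113 RPKM (102 to 124) on poplar. Its read counts were 212, 2743 and 417. Its rank by RPKM was 206 on glucose, 1489 on poplar and 2501 on PDA. Of the 3 genes it had the smallest ratio between its highest and lowest level.

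**Figure D1:**
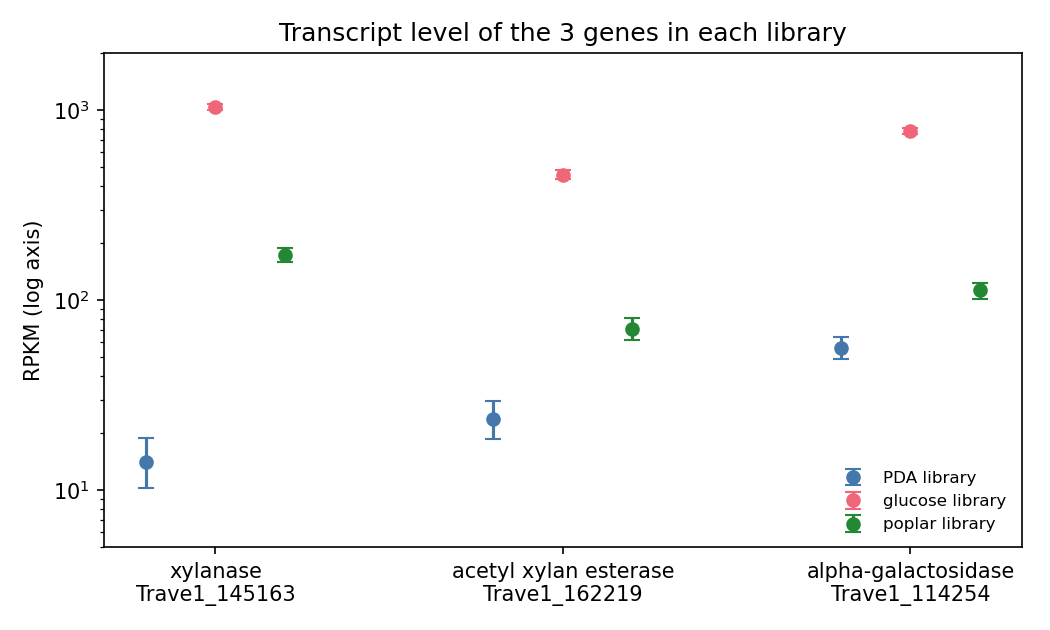
Level of each gene in RPKM (log axis) in the PDA, glucose and poplar libraries, 1 library per medium, with bars for the 95% exact counting interval. Each gene is highest in the glucose library, from 457 to 1039 RPKM, and lowest in the PDA library, from 14.0 to 56.2 RPKM.

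The order of the 3 genes among themselves changed between the media. In the PDA library the alpha-galactosidase was the most abundant, at 4.00 times the xylanase (2.90 to 5.63) per length, and the esterase stood between them at 1.68 times the xylanase (1.15 to 2.49). In the glucose library the xylanase was the most abundant, at 1.34 times the alpha-galactosidase (1.28 to 1.41) and 2.27 times the esterase (2.13 to 2.43). The poplar library kept the order of the glucose library, with the xylanase at 1.54 times the alpha-galactosidase (1.35 to 1.75) and 2.45 times the esterase (2.09 to 2.88). None of these intervals included equal levels.

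Between the poplar and glucose libraries the 3 genes were lower on poplar by similar factors. The xylanase was 6.0 times lower (5.48 to 6.58), the esterase 6.47 times lower (5.61 to 7.50) and the alpha-galactosidase 6.88 times lower (6.20 to 7.64). A gene was called at a 2-fold ratio of RPKM plus 1, among genes with at least 1 RPKM in either library. By this rule 3 of 3 were lower on poplar, beside 8.31% of all 10636 measured genes. The genes were chosen on this contrast, so nothing is read from that count. The ratio of the xylanase exceeded that of the alpha-galactosidase 1.15 times (0.997 to 1.32) and that of the esterase 1.08 times (0.909 to 1.28). The esterase exceeded the alpha-galactosidase 1.06 times (0.887 to 1.27). All 3 of these intervals include 1, but they cover counting error only. They cannot bound a difference in response between the genes, because 1 library per medium leaves variation between cultures unmeasured.

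Against the PDA library the 3 genes spread apart. The xylanase was 12.3 times higher on poplar (9.12 to 17.0), the esterase 2.99 times higher (2.29 to 3.94) and the alpha-galactosidase 2.00 times higher (1.69 to 2.37). On the scale of RPKM plus 1, 2 of 3 were called higher, beside 10.8% of all 10506 measured genes. Nothing is read from that count, because the genes were picked with their levels known. The alpha-galactosidase had a log2 ratio of 0.99 and fell just short of the 2-fold threshold, which it passed at 1.00 with a pseudocount of 0.1. The ratio of the xylanase exceeded that of the esterase 4.12 times (2.72 to 6.29) and that of the alpha-galactosidase 6.15 times (4.33 to 8.87). The ratio of the esterase exceeded that of the alpha-galactosidase 1.49 times (1.08 to 2.06).

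Between the glucose and PDA libraries the differences were the widest of the 3 comparisons for each gene. The xylanase was 74.0 times higher on glucose (55.4 to 101), with a log2 ratio of 6.11 that ranked 6 from the top of 10487 measured genes. The esterase was 19.3 times higher (15.3 to 24.7), at rank 36, and the alpha-galactosidase 13.8 times higher (12.0 to 15.9), at rank 54. All 3 were called higher, beside 12.7% of measured genes. The genes were picked with their levels known, so nothing is read from these ranks or that count. The 3 comparisons share libraries pairwise and are not independent of each other. The wider ratio of the xylanase goes with its low PDA level, which rests on 46 reads.

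**Figure D2:**
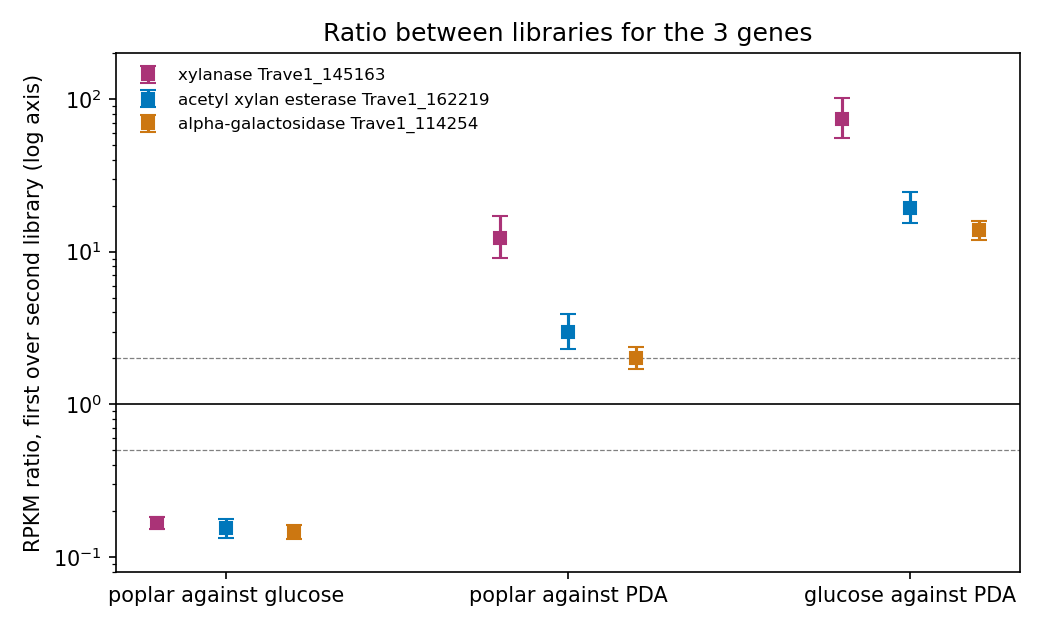
RPKM ratio of the first-named over the second-named library (log axis) for each gene, with the 95% exact counting interval; the solid line marks equal levels and the dashed lines a 2-fold difference. The 3 genes lie together between poplar and glucose, at 6.0 to 6.88 times lower, and spread from 13.8 to 74.0 times higher between glucose and PDA.

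Some other gene models with the same enzyme name differed from these genes in how they compared between media, and some were alike. These sets hold the gene models with that enzyme as their sole KEGG name, and were formed after the values were seen. Levels were summed per length, as RPKM. Since the reads counted were unique ones, levels of near-identical copies are uncertain.

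The xylanase name was shared by 6 gene models. Trave1_145163 made up 17.2% of their summed RPKM on PDA, 65.8% on glucose and 33.8% on poplar. The other 5 summed to 67.8, 540 and 339 RPKM in the same order, so that their sum was 1.59 times lower on poplar than on glucose. Trave1_38372, described as an endo-beta-xylanase precursor, measured 37.2 RPKM on PDA, 345 on glucose and 205 on poplar. It was the most abundant xylanase in the PDA and poplar libraries. Trave1_154417, also described as a xylanase, measured 8.92, 55.2 and 39.7 RPKM. Trave1_48987, a hypothetical protein, measured 10.03, 78.7 and 23.3 RPKM. Its calls were those of Trave1_145163 in every comparison, and it was 3.37 times lower on poplar than on glucose (2.61 to 4.39).

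Trave1_34218 and Trave1_39490 carry the xylanase name in KEGG but are described as endo-beta-glucanases, enzymes that cut cellulose or other glucans. Trave1_34218 measured 2.66 RPKM on PDA, 6.72 on glucose and 56.8 on poplar, and was 8.46 times higher on poplar than on glucose (5.25 to 14.4). It was the single gene of the 6 with its highest level on poplar. Trave1_39490 measured 8.99, 54.4 and 14.1 RPKM and was 3.87 times lower on poplar than on glucose (2.74 to 5.55).

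The acetyl xylan esterase name was shared by 3 gene models. Trave1_162219 was the most abundant of them in the glucose library, with 43.7% of their sum, and the least abundant in the other libraries, with 21.4% on PDA and 10.7% on poplar. Trave1_44147, also described as an acetyl xylan esterase, measured 56.5 RPKM on PDA, 292 on glucose and 434 on poplar, and was 1.49 times higher on poplar than on glucose (1.36 to 1.62). Trave1_141347, described as an alpha/beta-hydrolase, measured 30.3, 296 and 155 RPKM. The summed level of these other 2 genes was 588 RPKM on glucose and 589 RPKM on poplar, whereas Trave1_162219 was lower on poplar.

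The alpha-galactosidase name was shared by 4 gene models. Trave1_114254 made up 8.08% of their sum on PDA, 36.3% on glucose and 8.34% on poplar. Trave1_159844, described as an alpha-galactosidase, measured 317 RPKM on PDA, 620 on glucose and 686 on poplar. Trave1_60747, described as a glycoside hydrolase, measured 321, 736 and 546 RPKM. Both were well above Trave1_114254 on PDA and poplar and slightly below it on glucose. The last of the 4, Trave1_51767, stayed between 2.06 and 5.23 RPKM. The other 3 together were 1.10 times lower on poplar than on glucose and 2.13 times higher on glucose than on PDA, beside 6.88 and 13.8 times for Trave1_114254.

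**Figure D3:**
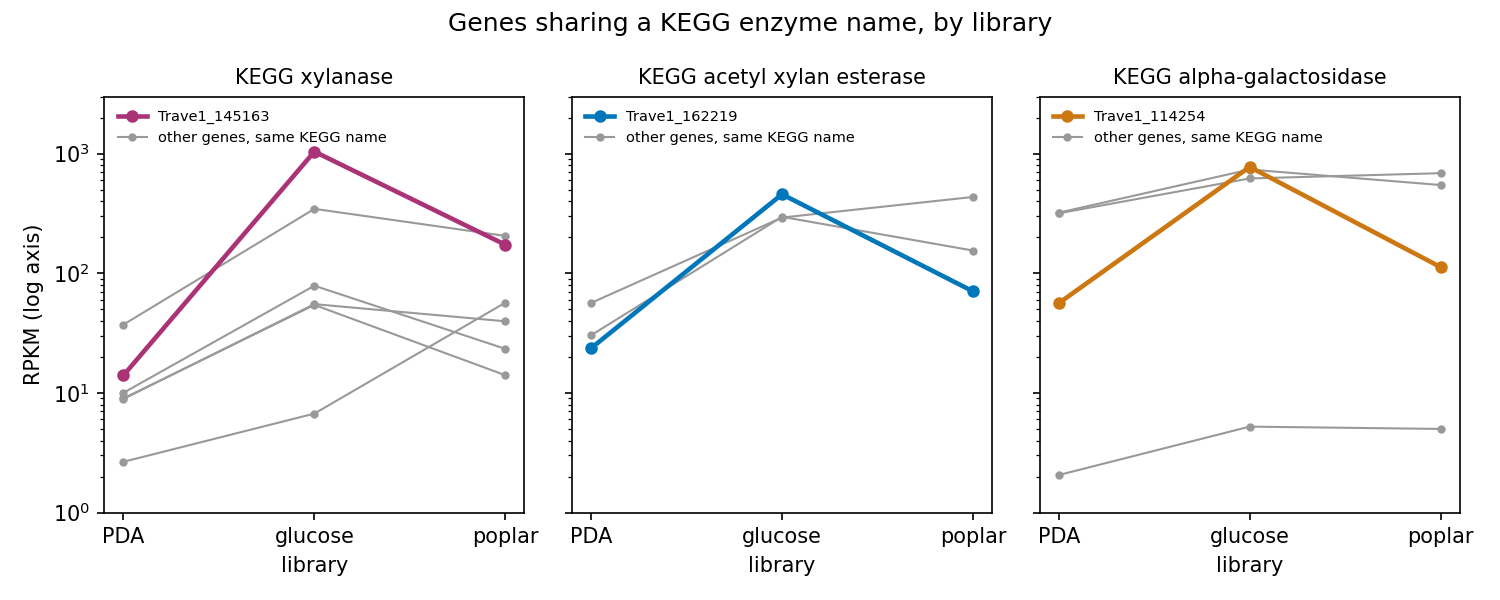
RPKM (log axis) in each library of the gene models with the same sole KEGG name, with lines joining the values of 1 gene and no order among the media implied. The coloured gene of each panel has the highest level of its panel on glucose, at 1039, 457 and 774 RPKM, and lies below at least 1 other gene on PDA and poplar.

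The wider set of hemicellulose genes was collected by text patterns on descriptions and KEGG names, which gave 44 gene models including the 3 genes. Of these, 41 were measured in each comparison. Patterns on the description alone gave 17. Between poplar and glucose 6 were higher and 10 lower; the median log2 ratio was −0.05, beside 8.10% higher, 8.31% lower and a median of 0.08 over all measured genes. The direction of this median depended on the processing: it was 0.22 by description alone, with 4 higher and 3 lower of 16, and −0.45 over genes of at least 10 RPKM. The number higher was 3 with a pseudocount of 5 and 11 at a 1.5-fold threshold. Against PDA, 23 were higher and 3 lower on poplar, with a median of 1.14, beside 10.8% higher, 5.11% lower and a median of 0.09 over all genes. Between glucose and PDA, 25 were higher and 4 lower on glucose, beside 12.7% higher and 6.52% lower over all genes. The median was 1.20, beside 0.01. All these counts include the 3 genes picked with their levels known. Without the 3 genes, 38 were measured, and only their counts can be set beside the shares over all genes. On poplar 6 of the 38 were higher and 7 lower than on glucose (median −0.03). Against PDA, 21 were higher and 3 lower on poplar (median 1.13), and 22 higher and 4 lower on glucose (median 1.10).

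Among the 12 genes of the xylan backbone, 6 were lower and 2 higher on poplar than on glucose, at a median log2 ratio of −0.99. Over all measured genes 8.31% were lower and 8.10% higher. The 6 lower genes were the picked Trave1_145163 and Trave1_162093, Trave1_64096, Trave1_40012, Trave1_39490 and Trave1_48987. Against PDA, 9 of the 12 were higher and 0 lower on poplar, beside 10.8% higher and 5.11% lower over all measured genes. The 9 higher genes also include the picked Trave1_145163. Several of the 12 genes carry more than 1 KEGG name. Trave1_162093, described as a mannanase, came closest to the xylanase Trave1_145163 in level on glucose and poplar, at 62.5 RPKM on PDA, 1043 on glucose and 200 on poplar. Trave1_64096, described as cellobiohydrolase II, a cellulase that also has the xylanase name in KEGG, was 2.35 times lower on poplar than on glucose (2.28 to 2.42), at 1646 against 3868 RPKM. Trave1_40012, a hypothetical protein with endoglucanase, xylanase and acetyl xylan esterase names, was 2.80 times lower (2.57 to 3.06). In the other direction, Trave1_68149, which KEGG names a beta-xylosidase, an enzyme that releases single xylose units, was 2.50 times higher on poplar (2.05 to 3.05), at 56.0 against 22.4 RPKM.

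Text patterns placed 18 genes under xylan side groups, some through only 1 of several KEGG names. Of these, 17 were measured, 4 higher and 2 lower on poplar than on glucose, with a median log2 ratio of 0.57. The 2 lower genes were Trave1_162219 and Trave1_58492. The latter, which KEGG names an arabinosidase of arabinan and not of xylan, measured 30.0 RPKM on poplar against 61.3 on glucose. Against PDA, 10 were higher and 3 lower on poplar, beside 10.8% higher and 5.11% lower over all measured genes. The 10 higher genes include the picked Trave1_162219. The 3 lower genes, Trave1_132016, Trave1_51660 and Trave1_74413, carry a KEGG name of feruloyl esterase, an enzyme that cuts ester links between ferulic acid and arabinose, and 2 of them are described as tannase and feruloyl esterase. Trave1_74413 measured 16.1 RPKM on PDA, 1.34 on glucose and 4.87 on poplar, from 64, 5 and 19 reads. Trave1_132016 measured 10.4, 0.945 and 1.58 RPKM, and Trave1_51660 had at most 12 reads in any library. The poplar over PDA ratio of Trave1_51660 had an interval of 0.0798 to 1.12, which includes equal levels. With an interval excluding 1 also required, 2 genes of the hemicellulose list were lower on poplar than on PDA. Another feruloyl esterase gene, Trave1_51628, measured 29.1 RPKM on PDA, 29.2 on glucose and 72.6 on poplar, 2.49 times higher on poplar than on glucose (2.02 to 3.08). It was 1 of the 4 genes higher on poplar than on glucose, all with the feruloyl esterase name. The others, Trave1_123745, Trave1_131548 and Trave1_74413, had at most 49 reads in the poplar or glucose library. The arabinofuranosidase Trave1_60184, which removes arabinose, measured 117 RPKM on PDA, 362 on glucose and 351 on poplar.

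Of the 9 genes for mannan and its galactose side groups, 7 were measured. Trave1_114254 was the single one called between poplar and glucose, and the median log2 ratio was −0.21. Each gene was given only the first role it matched. Trave1_162093, described as a mannanase, was thus placed under the xylan backbone by a KEGG name. It was 5.22 times lower on poplar than on glucose (4.82 to 5.65). Trave1_61994, a beta-mannosidase by KEGG, measured 57.2 RPKM on PDA, 62.8 on glucose and 90.9 on poplar, and Trave1_162929, also a beta-mannosidase, 56.5, 86.4 and 74.5 RPKM. Neither passed 2-fold in any comparison, and both were named after their values were seen. The patterns for xyloglucan and beta-galactosidase gave 5 genes, of which 1 matched xyloglucan itself and 4 matched beta-galactosidase names. Trave1_143920, an arabinogalactan galactosidase, was the single one lower on poplar than on glucose, 3.09 times (2.79 to 3.43), at 171 against 528 RPKM, and it measured 24.5 RPKM on PDA.

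**Figure D4:**
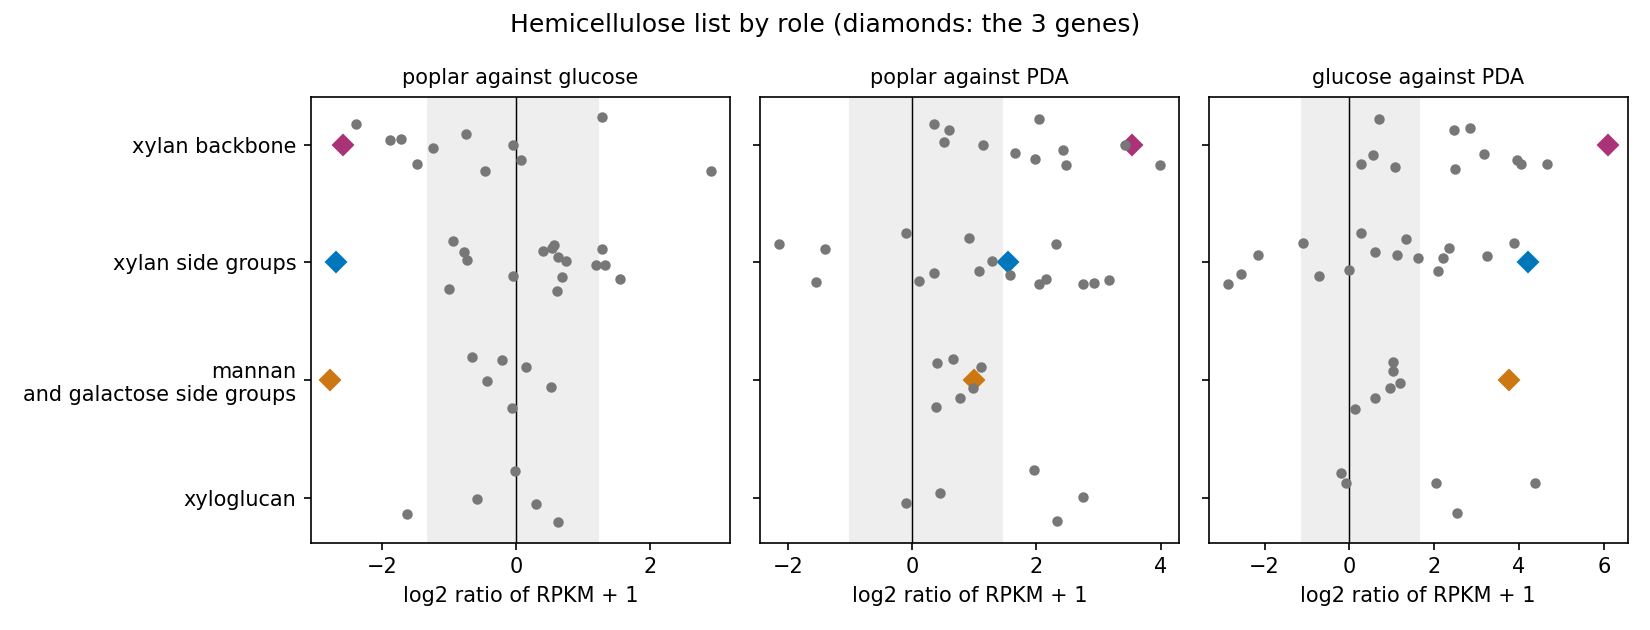
Log2 ratio of RPKM plus 1 for each measured gene of the hemicellulose list, by role and comparison; the diamonds are the 3 genes, in the colours of the other plots, the grey band holds the central part of all measured genes from percentile 5 to percentile 95, and the vertical scatter within a role has no meaning. Between poplar and glucose the diamonds are the lowest points of their roles, at −2.58, −2.68 and −2.77. The 3 genes were picked with their levels known, so nothing is read from this position. Each gene is shown only under the first role it matched.

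The order glucose above poplar above PDA, with at least a 2-fold ratio of RPKM plus 1 at each step, was met by 0.827% of the 10756 genes measured in some library. The xylanase and the esterase meet it, and the alpha-galactosidase misses the step from PDA to poplar. Of the other 41 hemicellulose genes, 6 of the 38 measured met it. A level in the glucose library at least 2-fold above both other libraries was met by 5.06% of genes, by all 3 of these genes and by 7 of the other 38. Since the 3 genes were picked with their levels known, nothing is read from their meeting either rule.

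Likeness of pattern was measured as the root mean square difference of log2 (RPKM plus 1) over the 3 libraries, after centring each gene, against 7303 other genes with at least 10 RPKM in some library. With 3 libraries this is a description only. The esterase and the alpha-galactosidase differed by 0.24, and 8 genes lay within 0.25 of the esterase and 13 of the alpha-galactosidase. The xylanase had 0 genes within 0.25 and differed by 0.92 from the esterase and by 1.16 from the alpha-galactosidase.

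Nearest to the xylanase among described genes was Trave1_43328, a cellulose-growth-specific protein, at a difference of 0.38, with 2.89 RPKM on PDA, 305 on glucose and 26.9 on poplar. Next were the glucoamylase Trave1_37627, an enzyme that releases glucose from starch, at 0.41, and cellobiohydrolase I Trave1_126211, a cellulase, at 0.46. Nearest to the esterase among described genes was Trave1_108761, an oxygenase, at 0.05. It had 3 reads on PDA, 110 on glucose and 14 on poplar, and its PDA level of 0.999 RPKM was no larger than the pseudocount. The mannanase Trave1_162093 came next at 0.12. Trave1_43287, described as a GroES-like protein, followed at 0.18 with 0 reads on PDA, 47 on glucose and 8 on poplar. Nearest to the alpha-galactosidase among described genes, with 1 undescribed gene nearer, was Trave1_34454, described as a glycoside hydrolase of the family now known as lytic polysaccharide monooxygenases, which cleave cellulose oxidatively, at 0.05, with 79.0, 1185 and 163 RPKM. Among described genes the transporter Trave1_35601 followed at 0.12 and the galactose mutarotase-like Trave1_27984 at 0.21.

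Genes for the use of the released sugars were set beside the 3 genes. Of 7 genes of xylose use, 0 were higher and 1 was lower on poplar than on glucose, beside 8.10% higher and 8.31% lower over all measured genes, so these counts are near the background. The lower gene was the xylose reductase Trave1_161839, which carries out the first step of fungal xylose use, at 3.25 RPKM on PDA, 41.9 on glucose and 8.82 on poplar. Its level was 4.75 times lower on poplar than on glucose (3.03 to 7.73) and 12.9 times higher on glucose than on PDA (6.55 to 28.9), from 9, 109 and 24 reads. Xylitol dehydrogenase Trave1_144563, the next enzyme, measured 107, 214 and 194 RPKM, and xylulokinase Trave1_148533, which follows it, 68.6, 65.0 and 63.3 RPKM; both were named after their values were seen. Trave1_30606, described as a mannitol dehydrogenase and placed in the list by KEGG, measured 25.0, 48.6 and 71.2 RPKM.

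Of 15 genes of galactose use, 14 were measured between poplar and glucose, 1 higher and 3 lower on poplar, beside the same 8.10% and 8.31%. Among the 3 lower genes, Trave1_129715 and Trave1_47932 rest on few reads. Trave1_129715 had 11 reads on glucose and 4 on poplar, and its poplar over glucose ratio interval of 0.0808 to 1.17 includes equal levels. Trave1_47932 had 21 reads on glucose and 7 on poplar. Trave1_27984, which KEGG names an aldose epimerase, an enzyme that interconverts the ring forms of galactose and glucose, measured 45.0 RPKM on PDA, 455 on glucose and 89.5 on poplar. It was 5.09 times lower on poplar than on glucose (4.48 to 5.79). Trave1_72634, with the same KEGG name, measured 22.7, 64.1 and 45.6 RPKM and was 1.40 times lower on poplar than on glucose, short of 2-fold. The galactokinase Trave1_38010, which phosphorylates galactose, measured 7.25, 15.4 and 15.2 RPKM and was also named after its values were seen. Its plain RPKM ratio of glucose over PDA was 2.13 (1.39 to 3.31), with a log2 ratio of 0.99 on the scale of RPKM plus 1. The uridylyltransferase Trave1_118951, the next enzyme of galactose use, measured 13.1, 8.53 and 18.1 RPKM. Trave1_50669 had its highest level on PDA, at 153 RPKM on PDA, 9.60 on glucose and 11.2 on poplar; it is described as a nucleotide-binding protein, and an epimerase is 1 of its KEGG names.

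The share of each gene model covered by reads, a column of the deposited tables that was not used to choose the genes, differed between them. In the glucose library it was 99.2% for the alpha-galactosidase, 90.1% for the esterase and 88.5% for the xylanase, although the xylanase had the most reads. The median over the 1007 gene models with at least 500 reads in that library was 98.4%, and 13.4% of them had a lower coverage than the xylanase. In the poplar library the values were 97.4%, 89.7% and 88.1%, within 2 percentage points of those on glucose. In the PDA library, with fewer reads, they were 98.2%, 75.5% and 68.8%. RPKM divides by the whole length of the gene model, whatever share of it is covered, and the bearing of coverage on the levels was not tested.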

How the data were processed

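The authors deposited 1 table per library, which lists the gene models that received reads. Per the file headers it gives the count of uniquely assigned reads, the length, the percent of the gene model covered (deposited coverage) and the RPKM. The deposited RPKM were recomputed from count, length and summed counts. Cufflinks 2.0.1 stands in the submitters' processing notes with no stated role. For aligner, strand and genome build the answer is not given in the sources used here. Genes missing from a table were set to 0 reads. Members and gene lists were chosen with earlier results of these data known.

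Ratios of RPKM carry a 95% Clopper-Pearson interval, conditional on the summed reads, levels the exact Poisson interval, and differences of ratios between genes the conditional odds ratio interval (scipy 1.17.1). Intervals cover counting error only, and reads lacking molecular identifiers are not separate molecules. Calls used a pseudocount of 1 RPKM, a 2-fold threshold and at least 1 RPKM in either library. Named genes were the 3 members, list genes with at least 10 RPKM and a 2-fold ratio (not all of which are described), and the 3 nearest described genes of each member. The procedure was tested on simulated data that held counting error only, so that test says nothing about variation between cultures or libraries. Alternatives were other pseudocounts, filters, thresholds and scalings, including TMM factors from edgeR 4.0.16, which was used for no test. No protein or promoter sequence was used here.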

Additional observations from a re-analysis of the deposited data

How the results depend on the processing

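The ratios of the 3 genes kept their direction under pseudocounts of 0.1 and 5 and under TMM and median-of-ratios scaling, and 35 of 36 values stayed inside the counting interval. The exception was the log2 ratio of Trave1_145163 between glucose and PDA, 5.78 with a pseudocount of 5 against 6.11. For Trave1_114254 between poplar and PDA the log2 ratio was 0.99, 1.00 with a pseudocount of 0.1 and 0.89 under both scalings. For the hemicellulose list between poplar and glucose, the number higher was 3 with a pseudocount of 5 and 11 at a 1.5-fold threshold. By description alone, with 16 genes measured, the number lower was 3 and the median reversed to 0.22. The median was −0.45 over genes of at least 10 RPKM. Between poplar and PDA the median was 1.56 over genes of at least 10 RPKM and, by description alone, 1.60 with 11 higher. Between glucose and PDA the median was 1.38 with a pseudocount of 0.1 and 2.06 over genes of at least 10 RPKM, and 9 were higher by description alone. A median was counted as moved beyond 0.1. TMM and median-of-ratios scaling shifted all ratios of poplar against glucose by −0.09 and of poplar against PDA by −0.10. No paired analysis was possible because each medium has 1 library. Leaving out a library was not possible for the same reason. The 46 reads of Trave1_145163 on PDA set the precision of its widest ratios.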
